A study of Mus musculus with 4 samples.

Results

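Histone lysine methyltransferases and demethylases are described here in mouse embryonic stem cells (ESCs) that have or lack REST, the repressor of neuronal genes that binds RE1 motifs. The 37 genes were chosen by name from a count table of 26301 genes, 22 under their present symbols and 15 through the Entrez identifiers of older symbols such as Jarid1c for Kdm5c and Utx for Kdm6a. They were grouped by the residue they act on and by whether they write or erase methylation. RNA was sequenced from 2 libraries of WT ESCs (line N6) and 2 of Rest-/- ESCs (line N8), given as biological replicates, and each genotype is represented by 1 line, so that genotype and line cannot be told apart. Both lines were grown with serum and LIF on irradiated embryonic fibroblasts and then passaged without them before harvest. Histone marks, binding and protein levels were not analysed here.

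Methylation of histone lysines is written by enzymes that mostly carry a SET domain and is erased by flavin-dependent or Jumonji demethylases. Methylated H3K4 is found at active and poised promoters, H3K36 and H3K79 methylation in transcribed genes, H3K27 methylation at Polycomb-repressed genes, and H3K9 and H4K20 methylation in heterochromatin. ESCs are known for promoters that carry H3K4 and H3K27 methylation together. REST is known to recruit the H3K9 methyltransferase Ehmt2 and the H3K4 demethylase Kdm1a, which are not among the 37 genes and are given below. Of the 37 genes, the study lists Wdr5 among the proteins found in purified REST complexes. It also names SMCX (Kdm5c), reported to bind REST in HeLa cells, as a possible H3K4 demethylase, without finding it in its own mass spectrometry.

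The libraries held 22293966 to 30953863 counts on genes, of which the 37 genes took 0.508% to 0.560%. For Rest itself 7908 and 6233 reads were counted in WT against 4244 and 3890 in Rest-/- ESCs, with a log2 fold change of -0.52 (SE, the standard error, 0.13, adjusted p = 0.526), and sums over the gene do not show which exons the reads cover. Markers of pluripotency summed to 4954 to 5083 CPM (read counts relative to the library total as scaled with TMM) in WT and 4252 to 4393 CPM in Rest-/- ESCs. All 10 were expressed, 4 had higher means in Rest-/- ESCs, and 5 did not overlap between genotypes, Utf1 being higher (log2 fold change 0.19) and Zfp42, Fgf4, Nanog and Klf4 lower (-1.36, -0.98, -0.46 and -0.44). Markers of feeder fibroblasts, of which 8 of 10 were tested and 7 had higher means without REST, summed to 44.6 and 25.7 CPM in WT and to 148 and 30.7 CPM in Rest-/- ESCs, with replicate 1 the higher in each genotype, while the marker Lum was at 0 in all 4 libraries. In this list 3 markers did not overlap between genotypes, Pdgfra and Pdgfrb being higher and Thy1 lower in Rest-/- ESCs. Markers of primitive endoderm summed to 258 to 429 CPM in WT and 521 to 629 CPM in Rest-/- ESCs, and all 10 had higher means, 7 of them without overlap, among these Gata6 (log2 fold change 2.26), Pdgfra (2.10) and Dab2 (1.34). Pdgfra is also on the feeder list. Of all genes tested, 16.5% were higher and 15.4% lower without overlap. No marker of these 3 lists was called (0 in edgeR's quasi-likelihood test). The part of these markers in the values below was not tested, and in bulk RNA fewer cells of a type and less RNA per cell cannot be told apart.

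None of the 37 genes passed the test between genotypes in the fit without a block for replicate number. Of these, 36 were expressed highly enough to be tested, and 0 of 36 passed edgeR's quasi-likelihood test at an adjusted p of 0.05, beside 9 of 15444 genes (0.0583%). Kdm5c alone had an unadjusted p under 0.05 in this test, beside 1036 of the 15444 genes. With edgeR's exact test and tag-wise dispersion 0 of 36 were called, beside 1.51% of all genes tested. With common dispersion 0 were called, beside 2.22% of all genes, and with DESeq2 0, beside 1.54%, again without a block. In these 3 fits no member had an unadjusted p under 0.05, beside 848, 1073 and 881 of all genes tested. With 2 libraries against 2, an exact permutation test of a single gene could not give a two-sided p under 0.333.

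The median log2 fold change (Rest-/- over WT) of the 36 genes was -0.02, beside -0.0047 for all genes tested, with 23 genes below 0 and 13 above. Values ran from -0.55 for Kdm6a to 0.39 for Setd7. The 95% interval lay within 1 of 0 on the log2 scale, that is within a doubling or halving, for 33 of 36 members (91.7%), beside 50.8% of all genes tested, and the exceptions were Kdm6a, Kdm3a and Setd7. The 2 WT libraries differed from each other by more than the fitted genotype difference for 29 of 36 members (80.6%), beside 64.5% of all genes. The median half-width of the 95% interval was 0.42 for members and 0.75 for all genes tested. These comparisons with all genes were not matched for expression level.

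**Figure D1:**
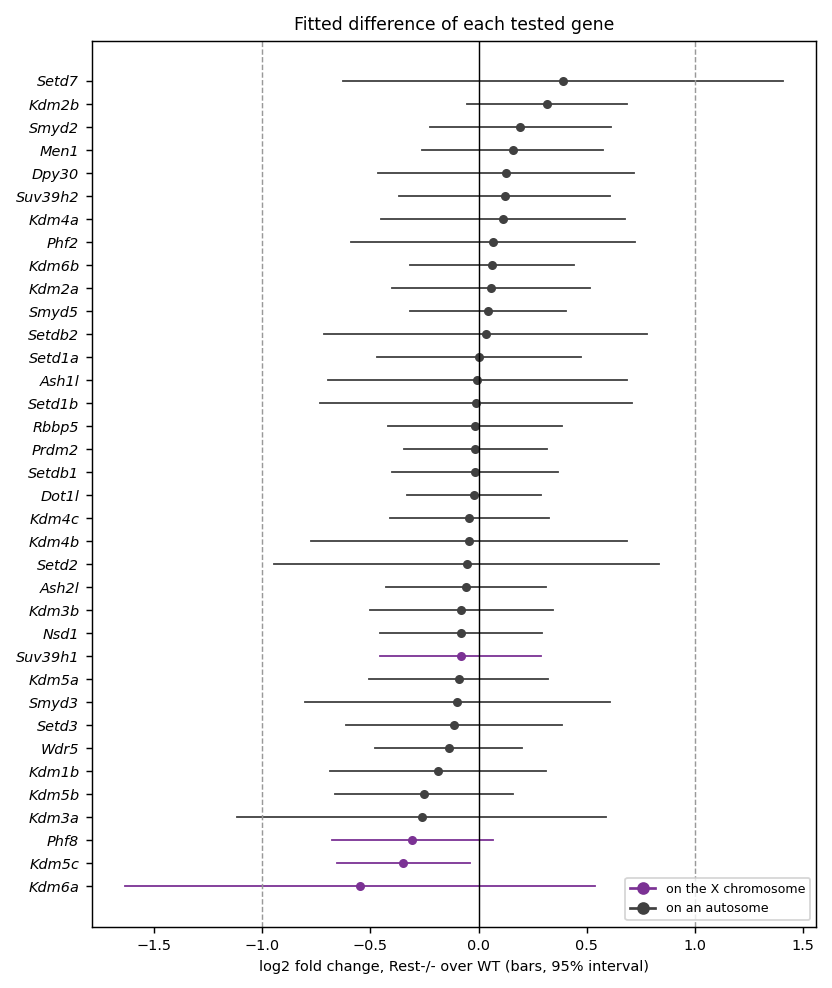
Fitted log2 fold change of the 36 tested genes (points) with its 95% interval (bars), in order of size, with dashed lines at -1 and 1. The interval of Kdm5c, from -0.66 to -0.04, is the 1 that leaves out 0, and the 3 lowest points are X-linked genes (purple).

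Both Rest-/- libraries lay below both WT libraries for 7 of 36 members (19.4%), beside 15.4% of all genes tested, and above them for 2 of 36 (5.56%), beside 16.5%. The lower genes were Kdm5c, Phf8, Kdm5b, Kdm1b, Wdr5, Suv39h1 and Dot1l, and the higher genes were Kdm2b and Smyd2. For these 9 the counts and levels are given with their groups below, apart from Dot1l, whose difference was the least of the 7.

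**Figure D2:**
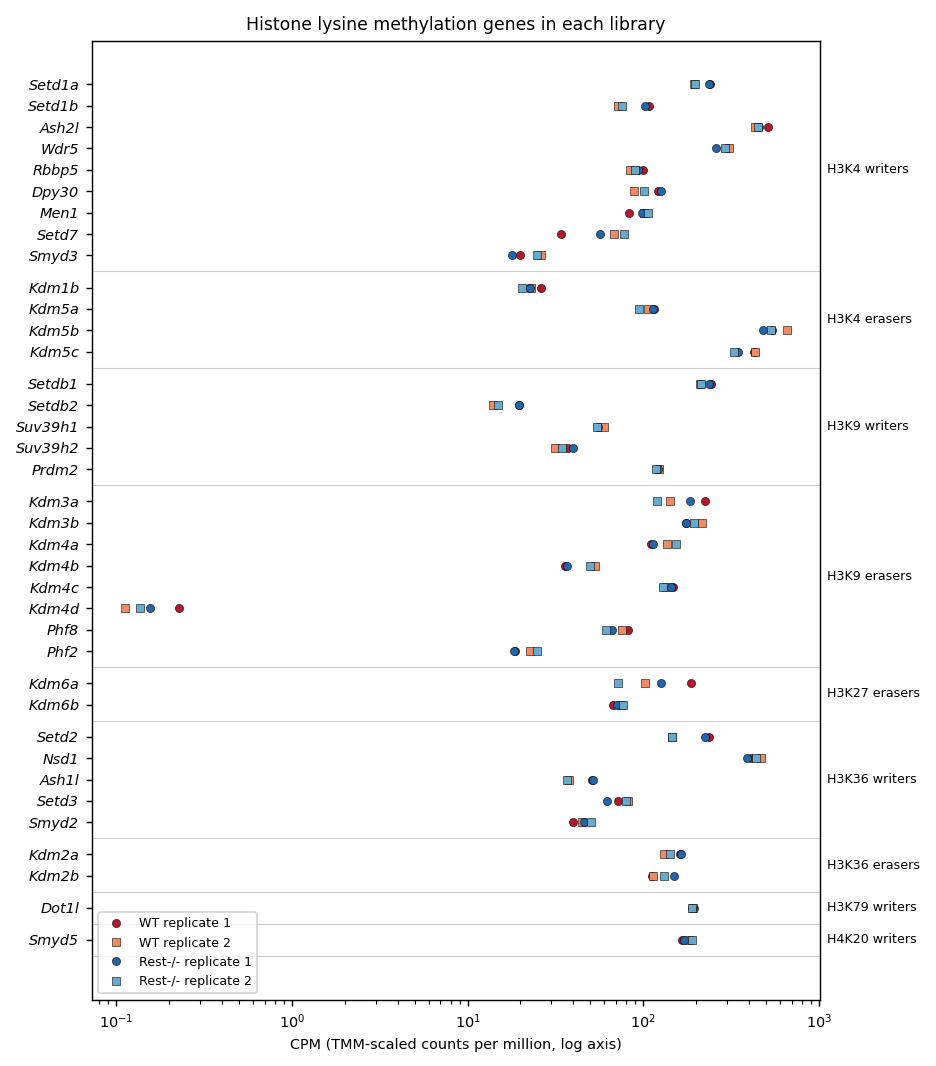
CPM of each of the 37 genes in each library (log axis), grouped by residue and activity; circles are replicate 1 and squares replicate 2, in reds for WT and blues for Rest-/-. The points of a gene sit close together for most genes, Kdm6a, Setd7, Kdm3a and Setd2 spread between the replicates in both genotypes, and Kdm4d lies near the floor.

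Among the H3K4 writers (9 genes, all tested), 4 log2 fold changes were above 0 and 5 below, with a median of -0.01. Setd1a and Setd1b are the catalytic subunits of the SET1 complexes, which deposit most H3K4 trimethylation. Setd1a had 240 and 194 CPM in WT and 237 and 198 CPM in Rest-/- ESCs, so that the values of the genotypes interleaved and the log2 fold change was 0.00. Its exons overlap those of Hsd3b7 on the same strand over 3523 bp, and how reads there were assigned is not known. Setd1b had a log2 fold change of -0.01 (SE 0.27). Wdr5, Rbbp5, Ash2l and Dpy30 form the core shared by the SET1 and MLL complexes. Wdr5 (chromosome 2 of mm9 from 27370677 to 27392055), the scaffold that binds the catalytic subunit, had 9253 and 8283 reads counted in WT against 6722 and 6471 in Rest-/- ESCs. These were 299 and 309 CPM against 260 and 292 CPM, both Rest-/- libraries below WT, and the log2 fold change was -0.14 (SE 0.13, adjusted p = 1.00), with -0.05 when Rest-/- replicate 1 was left out and -0.23 when Rest-/- replicate 2 was. For the other core subunits the genotypes overlapped, with log2 fold changes of -0.06 for Ash2l, -0.02 for Rbbp5 and 0.13 for Dpy30. Men1, which encodes menin and belongs to the MLL complexes, had a log2 fold change of 0.16, with 0.025 when WT replicate 1 was left out and 0.30 when WT replicate 2 was.

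Setd7 and Smyd3 are writers outside these complexes that also methylate proteins other than histones. Setd7 (chromosome 3 from 51319241 to 51364800), a monomethyltransferase, had 1058 and 1831 reads counted in WT against 1474 and 1714 in Rest-/- ESCs, or 34.2 and 68.4 CPM against 57.1 and 77.4 CPM. The lowest value was WT replicate 1, and the groups overlapped. Its log2 fold change of 0.39 (SE 0.38, 95% interval -0.63 to 1.41) was the highest of the 36, and leaving out WT replicate 1 gave -0.03, leaving out WT replicate 2 gave 0.98. Smyd3 had a log2 fold change of -0.10 at 18.0 to 26.1 CPM.

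For Dpy30, Rbbp5 and Setd3, near-identical copies elsewhere in the genome limit what the counts can tell. A search of mm9 with the coding sequences found a copy of at least 90% identity over at least 80% of the coding length for these 3 of the 37 genes. The copy of Rbbp5 is annotated as Gm11977, which is not among the counted genes, the copies of Dpy30 and Setd3 shown overlap no annotated gene, and whether reads of a copy were counted to the gene is not known. For each, a stretch of 60 coding bases is shown with the copy, in lower case with mismatched bases in capitals, as an example of the likeness. It is the first stretch without gaps in the best alignment, and it holds fewer mismatches than the alignment does on average. The Dpy30 stretch is coding bases 53 to 112 (copy on the plus strand of mm9 chr8:77603533-77603592), and the others are coding bases 1 to 60 (Rbbp5 copy on the minus strand of chr11:6683082-6683141, Setd3 copy on the plus strand of chr1:33157751-33157810).
Dpy30: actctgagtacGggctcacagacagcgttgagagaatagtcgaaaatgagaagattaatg
Dpy30 copy: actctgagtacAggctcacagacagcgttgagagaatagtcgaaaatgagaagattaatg
Rbbp5: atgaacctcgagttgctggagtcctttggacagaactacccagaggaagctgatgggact
Rbbp5 copy: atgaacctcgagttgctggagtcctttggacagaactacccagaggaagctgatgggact
Setd3: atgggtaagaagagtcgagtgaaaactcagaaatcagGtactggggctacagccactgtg
Setd3 copy: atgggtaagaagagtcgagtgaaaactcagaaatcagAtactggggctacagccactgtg
The Rbbp5 copy had 0 mismatches in this stretch and the other copies 1 each. Over the aligned length the copies shared 92.7% of bases with Dpy30, which has a coding sequence of 300 bp, 96.2% with Rbbp5 and 95.9% with Setd3, which had 2 such copies. The log2 fold changes of these 3 genes are therefore uncertain.

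The 4 genes grouped as H3K4 erasers each had a log2 fold change below 0 (median -0.22), and for 3 of them both Rest-/- libraries lay below both WT libraries, where 50.8% of all genes tested were below 0 and 15.4% lay lower without overlap. Kdm2b, grouped below with the H3K36 erasers and also described as an H3K4 demethylase, lay the other way, at 0.32 with both Rest-/- libraries above WT. With so few genes nothing particular to the group can be read from these counts. Kdm5a, Kdm5b and Kdm5c are Jumonji demethylases of trimethylated and dimethylated H3K4. Kdm5c (chromosome X from 148667563 to 148709078) is a gene linked to intellectual disability in humans. It had 13234 and 11604 reads counted in WT against 8978 and 7288 in Rest-/- ESCs. These were 427 and 433 CPM in WT against 347 and 329 CPM in Rest-/- ESCs, so that the genotypes lay well apart compared with the gap between replicates. The means were 430 ± 4.08 CPM and 338 ± 13.1 CPM (SD, n = 2), and the log2 fold change was -0.35 (SE 0.12, 95% interval -0.66 to -0.04, adjusted p = 0.696). Leaving out each library in turn gave -0.38 to -0.31.

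Kdm5b (chromosome 1 from 136456748 to 136529454), an H3K4 demethylase abundant in ESCs, had 16827 and 17686 reads counted in WT against 12378 and 11779 in Rest-/- ESCs. The WT libraries had 544 and 660 CPM and the Rest-/- libraries 479 and 532 CPM, with little distance between the lower WT and the higher Rest-/- value. Its log2 fold change was -0.25 (SE 0.15, adjusted p = 0.999), with -0.10 when WT replicate 2 was left out and -0.39 when WT replicate 1 was. Kdm1b (chromosome 13 from 47138868 to 47179982), a flavin-dependent H3K4 demethylase, had 806 and 615 reads counted in WT against 587 and 450 in Rest-/- ESCs. In CPM these were 26.0 and 23.0 against 22.7 and 20.3, and the lower WT library and the higher Rest-/- library nearly met. The log2 fold change was -0.19 (SE 0.19, adjusted p = 1.00), with -0.10 when WT replicate 1 was left out and -0.11 when Rest-/- replicate 2 was. For Kdm5a the genotypes overlapped and the log2 fold change was -0.09.

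The 5 H3K9 writers, all tested, centred on a median log2 fold change of -0.02. Suv39h1 and Suv39h2 write H3K9 trimethylation in pericentric heterochromatin. Suv39h1 (chromosome X from 7638297 to 7651886) had 1730 and 1607 reads counted in WT against 1421 and 1206 in Rest-/- ESCs. Its levels were 55.9 and 59.999 CPM in WT and 55.0 and 54.4 CPM in Rest-/- ESCs, so that the groups were parted by less than the gap between the WT libraries, and the log2 fold change was -0.08 (SE 0.14), with -0.03 when WT replicate 2 was left out and -0.14 when WT replicate 1 was. Its exons overlap Gm14820 on the opposite strand over 596 bp, and 8 members had such overlaps, whose reads cannot be told apart without strand. Suv39h2 had a log2 fold change of 0.12 with overlapping groups, and leaving out each library in turn gave 0.0046 (WT replicate 2) to 0.24 (WT replicate 1). Setdb1, which silences endogenous retroviruses in ESCs, had 244 and 210 CPM in WT and 236 and 213 CPM in Rest-/- ESCs and a log2 fold change of -0.02. Its relative Setdb2 and the PR-domain protein Prdm2 had log2 fold changes of 0.03 and -0.02.

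Of the 8 H3K9 erasers 7 were tested, 5 of them below 0, with a median of -0.05. Phf8 (chromosome X from 147955215 to 148068402), a Jumonji demethylase that also acts on H4K20, had 2522 and 2042 reads counted in WT against 1717 and 1353 in Rest-/- ESCs. These were 81.5 and 76.2 CPM against 66.5 and 61.1 CPM, both Rest-/- libraries below both WT libraries. The log2 fold change was -0.31 (SE 0.14, 95% interval -0.68 to 0.07, adjusted p = 0.862), and -0.36 to -0.25 with each library left out. Phf2, its autosomal relative, had a log2 fold change of 0.07. Kdm3a and Kdm3b remove lower methylation states of H3K9. Kdm3a (chromosome 6 from 71538968 to 71582899) had 6935 and 3826 reads counted in WT against 4799 and 2658 in Rest-/- ESCs. Its levels of 224 and 143 CPM in WT and 186 and 120 CPM in Rest-/- ESCs overlapped, replicate 1 being the higher in each genotype. The log2 fold change was -0.26 (SE 0.32), and it was 0.09 without WT replicate 1, 0.01 without Rest-/- replicate 2 and -0.61 without Rest-/- replicate 1. Kdm3b had a log2 fold change of -0.08.

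Kdm4a, Kdm4b, Kdm4c and Kdm4d remove H3K9 trimethylation, the first 3 also acting on H3K36. The genotypes overlapped in all of them, with log2 fold changes of 0.11, -0.05 and -0.04 for Kdm4a, Kdm4b and Kdm4c. Kdm4d (chromosome 9 from 14266992 to 14304926), known for its expression in testis, had 7 and 3 reads counted in WT against 4 and 3 in Rest-/- ESCs, or 0.226 and 0.112 CPM against 0.155 and 0.135 CPM. It was at or near the detection floor of 3 counts in 3 of 4 libraries and was not tested.

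The H3K27 erasers Kdm6a and Kdm6b gave log2 fold changes of -0.55 and 0.06. Kdm6a (UTX, chromosome X from 17739701 to 17857062), a subunit of the MLL3 and MLL4 complexes, had 5799 and 2739 reads counted in WT against 3252 and 1600 in Rest-/- ESCs. In CPM these were 187 and 102 against 126 and 72.2. The higher Rest-/- library lay above the lower WT library, and the replicates of each genotype differed by more than the genotypes did. Its log2 fold change was the lowest of the members and the least precise (SE 0.41, 95% interval -1.64 to 0.54, adjusted p = 1.00), and was -0.05 without WT replicate 1, -0.21 without Rest-/- replicate 2 and -0.999 without Rest-/- replicate 1. Kdm6b (JMJD3), at 67.4 and 74.3 CPM in WT and 71.3 and 76.7 CPM in Rest-/- ESCs, interleaved between genotypes.

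Of the H3K36 writers, Setd2 trimethylates H3K36 behind elongating RNA polymerase II and Nsd1 writes the dimethyl state. Their log2 fold changes were -0.05 (SE 0.34) and -0.08 (SE 0.14), and that of Ash1l, another H3K36 writer, was -0.01. Setd3, first described as an H3K36 methyltransferase and known as the actin histidine methyltransferase, had a log2 fold change of -0.11. Smyd2 (chromosome 1 from 191704371 to 191746242), which has also been assigned H3K4 and methylates p53, had 1233 and 1198 reads counted in WT against 1194 and 1116 in Rest-/- ESCs. Its levels were 39.8 and 44.7 CPM in WT and 46.2 and 50.4 CPM in Rest-/- ESCs, without overlap, with a log2 fold change of 0.19 (SE 0.16, adjusted p = 1.00). Leaving out WT replicate 1 gave 0.11 and leaving out Rest-/- replicate 2 gave 0.12.

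The H3K36 erasers Kdm2a and Kdm2b bind unmethylated CpG islands, and Kdm2b brings a variant Polycomb complex, PRC1, to them. Kdm2b (chromosome 5 from 123320677 to 123465089) had 3464 and 3059 reads counted in WT against 3891 and 2898 in Rest-/- ESCs. With library size these were 112 and 114 CPM in WT and 151 and 131 CPM in Rest-/- ESCs, and both Rest-/- libraries lay above the WT libraries, which were close together. The log2 fold change was 0.32 (SE 0.14, 95% interval -0.06 to 0.69, adjusted p = 0.850), and 0.21 to 0.41 with each library left out, the lowest without Rest-/- replicate 1. Its exons overlap 206 bp of genes on the opposite strand. Kdm2a had a log2 fold change of 0.06. Dot1l, the H3K79 methyltransferase, had the smallest difference between replicates in each genotype, with 194 and 192 CPM in WT and 191 and 191 CPM in Rest-/- ESCs, a log2 fold change of -0.02 (SE 0.12, 95% interval -0.33 to 0.29). Smyd5, a writer of H4K20 trimethylation in ESCs, had 166 and 183 CPM in WT and 171 and 189 CPM in Rest-/- ESCs and a log2 fold change of 0.04. Taken by activity, the median log2 fold change was -0.02 for the 21 writers and -0.08 for the 15 tested erasers, a difference that was not tested.

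**Figure D3:**
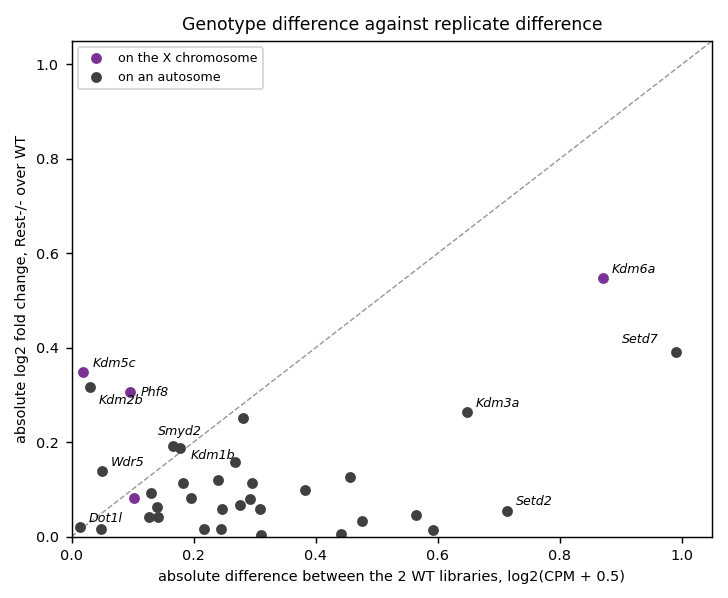
Absolute log2 fold change of each of the 36 tested genes against the absolute difference between the 2 WT libraries in log2(CPM + 0.5); points above the dashed line differ more between genotypes than between WT libraries. Kdm5c, Kdm2b, Phf8, Wdr5, Smyd2, Kdm1b and Dot1l lie above the line and the other 29 below it.

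The 4 X-linked members, Kdm5c, Kdm6a, Phf8 and Suv39h1, all had log2 fold changes below 0, with a median of -0.33, and 3 of 4 lay lower in both Rest-/- libraries. The 564 X-linked genes tested had a median of -0.41, 84.6% were below 0 and 45.0% lay lower in both Rest-/- libraries. Of them 0 passed edgeR's quasi-likelihood test at an adjusted p of 0.05. In that test 100 had an unadjusted p under 0.05, beside 1036 of all 15444 genes tested. The difference between the 4 members and the other genes of the chromosome was not tested. The 32 tested members on autosomes ran from -0.26 to 0.39, with a median of -0.02, 19 below 0 and 13 above. Of the Y-linked relatives, Kdm5d had 0 and 0 reads counted in WT against 2 and 0 in Rest-/- ESCs, and Uty had 2 and 0 in WT and 3 and 0 in Rest-/- ESCs, all at or under the floor of 3 counts.

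To compare levels between genes, CPM was divided by exon length from GENCODE M1, and all levels in this paragraph are WT means in CPM per kb. The annotation used to count the reads is not given, and its exon lengths may differ. The tested members had a median of 18.0, beside 6.42 for all tested genes, and a median exon length of 6.82 kb, beside 3.56 kb. The core subunits Dpy30 (107), Ash2l (90.1) and Wdr5 (84.6) ranked highest, followed by the H3K4 demethylases Kdm5b (77.6) and Kdm5c (60.5) and by Smyd5 (55.2). Of Dpy30, Ash2l, Wdr5 and Kdm5b, Dpy30 was the highest in each library. Its range between the WT libraries, 90.5 to 124, overlaps that of Ash2l, 82.4 to 97.8. In WT replicate 2 Wdr5 (86.0) and Kdm5b (85.1) lay above Ash2l (82.4). The order of Ash2l, Wdr5 and Kdm5b thus differs between the WT libraries. The level of Dpy30 may include reads of its copy, which was not tested. The lowest were Ash1l (3.94), Phf2 (3.93), Smyd3 (2.75) and Kdm4d (0.0591). Rbbp5, at 25.5, lay below the other core subunits.

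Within families the same paralog led in all 4 libraries, apart from the Kdm3 and Kdm6 pairs and the Kdm4 genes, where the leading gene differed between libraries. As shares of the summed level per kb, Setd1a took 78.1% and 81.2% of the Setd1 pair in WT and 78.8% and 80.6% in Rest-/- ESCs. The exon length of Setd1a, 6795 bp, holds the 3523 bp overlapped by Hsd3b7, so that its share is uncertain. Setdb1 took 88.0% and 89.9% of the Setdb pair in WT and 87.7% and 89.5% in Rest-/- ESCs. Kdm5b took 50.6% and 55.4% of the 3 Kdm5 genes in WT and 52.1% and 56.4% in Rest-/- ESCs, Kdm5c took 43.5% and 39.7% in WT and 41.2% and 38.1% in Rest-/- ESCs, and Kdm5a the rest. The genotypes overlapped in each of these 4 shares. They did not overlap for the Kdm2 pair, of which Kdm2a took 69.3% and 64.1% in WT and 62.9% and 62.8% in Rest-/- ESCs, or for Ash2l, with 29.4% and 29.2% of the 4 core subunits in WT and 27.7% and 28.98% in Rest-/- ESCs, and these differences were not tested. Kdm6a took 70.3% and 54.0% of the Kdm6 pair in WT and 60.1% and 44.5% in Rest-/- ESCs, so that Kdm6b was the higher in Rest-/- replicate 2 alone.

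**Figure D4:**
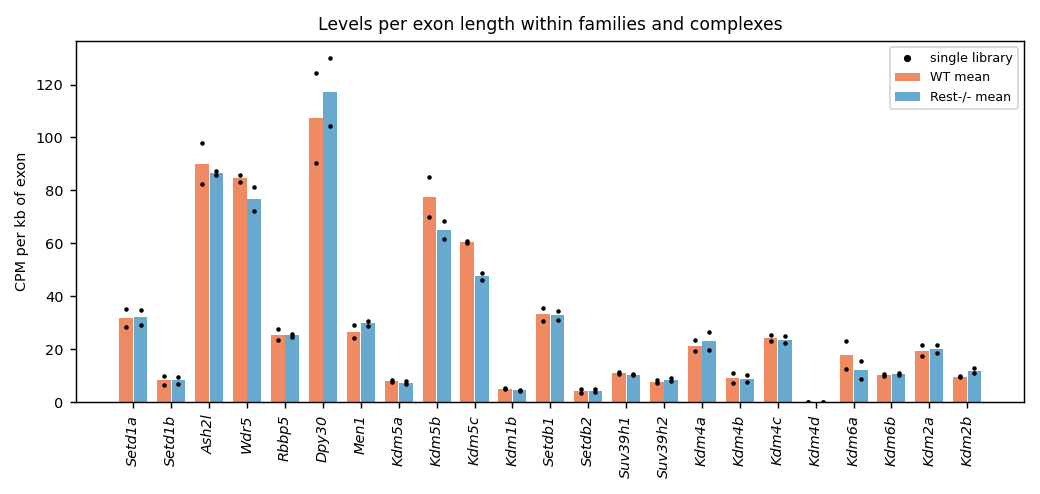
Level per exon length (CPM per kb) of members in families and complexes, with bars from 0 for the mean of each genotype and points for single libraries. Dpy30, Ash2l, Wdr5, Kdm5b and Kdm5c stand above the others, and Kdm4d is at 0.0591 in WT.

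Of 33 further genes of histone lysine methylation, listed by the same residues, 31 were tested, 15 above 0 and 16 below. In edgeR's quasi-likelihood test 0 were called, beside 0.0583% of all genes, and 1 had an unadjusted p under 0.05, beside 1036 of 15444 genes. Both Rest-/- libraries lay above WT for 7 of the 31 (22.6%), beside 16.5% of all genes tested, and below for 8 (25.8%), beside 15.4%. Of the REST partners, Ehmt2 (G9a) had 245 and 295 CPM in WT and 325 and 399 CPM in Rest-/- ESCs, without overlap, and a log2 fold change of 0.42 (SE 0.17, adjusted p = 0.808), while Kdm1a had -0.02 (SE 0.20). Ezh2, the main H3K27 methyltransferase of ESCs, had -0.07, and its relative Ezh1 -0.32 without overlap. The other genes highest without overlap were Kdm3c (Jmjd1c), at 0.48, and Kdm8, at 0.31, and the lowest were Smyd1 and Prdm16, at -1.74 and -0.44. Smyd1, a muscle methyltransferase, had 380 and 208 reads counted in WT against 81 and 63 in Rest-/- ESCs, and its adjusted p was 0.377 in the quasi-likelihood test and 0.0331 in edgeR's exact test with tag-wise dispersion, in which it was the only one of the 31 called, beside 1.51% of all genes tested.

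RE1 motifs near the members were searched on both strands of mm9. The letters were those shared by most RE1 positions that the study lists, ACNNTGGACAGCNCC, with 12 fixed letters, and they matched at 570 places in the genome. A match lay within 20 kb of a transcription start for 1 of the 37 members (2.70%), beside 270 of 14205 tested genes with a position (1.90%). The member was Kdm3b, with a match inside the gene and outside its exons, 13620 bp from a start, and its log2 fold change was -0.08. A match is a description of letters and does not show binding. The 570 matches are fewer than the 1942 listed positions from which the letters were read, so that many RE1 sites are missed. The lack of a match therefore does not show that no RE1 lies near a member. The listed positions themselves were not set against the members.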

How the data were processed

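Total RNA of 2 WT (N6) and 2 Rest-/- (N8) ESC cultures was sequenced. The authors mapped reads with Subread, assigned them with featureCounts and deposited whole-number counts per Entrez gene without normalization. The submitters' processing notes name mm9, and the strand setting is not given in the sources used here. Of 26669 rows, 368 without an identifier or values were left out.

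From the counts, edgeR 4.0.16 (R 4.3.3) was fitted to all genes (TMM, filterByExpr, quasi-likelihood test, Benjamini-Hochberg over 15444 genes, threshold 0.05), with 2 libraries a genotype and no block. P-values measure the spread between these libraries. Alternatives were RLE scaling, no filter, edgeR's exact tests, DESeq2 1.42.0, a block for replicate number and leaving out each library. The tests were checked on simulated data of 15135 genes, 200 of them changed by 2 on the log2 scale. There the quasi-likelihood test recovered 100% with 2.91% false calls. The simulated libraries varied independently with a fixed dispersion, and the changes were larger than any fitted for a member. The check therefore does not show the power to find differences of the members' size.

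Names came from RefSeq (GRCm38.p6), positions from GENCODE M1 on mm9, and RE1 letters from the bases at 1942 listed positions, a letter being fixed where its share was at least 0.5. Copies were searched with BLAST+ 2.17.0. The members and lists were chosen with earlier results of these data known. Values in every library were given for the 6 highest and 6 lowest members without overlap between genotypes, for members called by any test and for members not tested; only 2 were higher. Values of other members were chosen after they were seen.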

Additional observations from a re-analysis of the deposited data

How the results depend on the processing

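The members' median and the absence of calls among them held under RLE scaling, without a filter on low counts, with edgeR's exact tests and with DESeq2, and the median lay between -0.09 and 0.00 over all alternatives, within the spread between replicates (0.109). The number of genes called did not: beside 9, and 10 with RLE scaling, it was 53 without the filter, 233 and 343 with edgeR's exact test under tag-wise and common dispersion, 238 with DESeq2, and 60 to 113 with each library left out (72 without WT replicate 1, 113 without WT replicate 2, 68 without Rest-/- replicate 1 and 60 without Rest-/- replicate 2). The cause was not tested. With the replicate number as a block, 2621 genes were called (17.0%), and 7 of 36 members (19.4%), Setd7 and Kdm2b higher and Kdm5b, Kdm5c, Kdm3a, Phf8 and Kdm6a lower. Of the 31 other genes of histone lysine methylation 8 were called with the block (25.8%), Kmt2a, Smyd1, Ehmt2, Atf7ip, Kdm3c, Ezh1, Nsd3 and Kmt5b. The differences of replicate 1 from replicate 2 in WT and in Rest-/- correlated over 15444 genes (Pearson r = 0.807) and over the 36 members (0.924), but no shared culture or day is stated for equal numbers, and 2 pairs cannot show a pairing.

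Setd1a, at 0.0028, was at -0.0052 under RLE scaling and with DESeq2 and at -0.0072 without the filter, and Setd1b, at -0.013, was at 9.1e-05 with the block. Leaving out a library changed the direction of 24 members, with the ranges Setd1b (-0.28 to 0.31), Ash2l (-0.17 to 0.065), Rbbp5 (-0.13 to 0.11), Setd7 (-0.029 to 0.98), Setdb1 (-0.12 to 0.0903), Kdm3a (-0.61 to 0.091), Kdm4a (-0.13 to 0.32), Kdm4c (-0.12 to 0.0301), Phf2 (-0.18 to 0.28), Kdm6b (-0.012 to 0.14), Setd2 (-0.40 to 0.34), Ash1l (-0.27 to 0.23), Smyd5 (-0.038 to 0.12), Setd1a (-0.14 to 0.16), Dpy30 (-0.084 to 0.37), Smyd3 (-0.36 to 0.12), Setdb2 (-0.19 to 0.29), Prdm2 (-0.046 to 0.0093), Kdm3b (-0.22 to 0.076), Kdm4b (-0.31 to 0.27), Nsd1 (-0.18 to 0.021), Kdm2a (-0.088 to 0.21), Setd3 (-0.31 to 0.064) and Kdm5a (-0.22 to 0.025). The direction of the other 12 held in all 4 such fits. Leaving 1 library in a genotype assumes that it varies like the others. With 2 libraries a genotype, single samples that stand apart could not be tested for. Of the members, Kdm4d alone was too thinly counted to be tested.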
